A study of Mus musculus with 6 samples.

Results

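Hepatic stellate cells lie between hepatocytes and the sinusoidal endothelium and store vitamin A as retinyl esters. In injured liver they are known to lose that store, respond to platelet-derived growth factor (PDGF), and become contractile, matrix-producing myofibroblasts. Here 10 genes that mark these cells, none of them a matrix gene, were followed in MYC-driven mouse liver tumors by bulk RNA sequencing. They were taken by gene symbol. Acta2, Tagln and Des stood for the contractile and cytoskeletal state, and Pdgfrb, Pdgfra and Rgs5 for growth factor reception and mural cells. Lrat and Reln stood for the vitamin A-storing, quiescent state. Hgf was taken as a secreted ligand and Ngfr as a neurotrophin receptor. Each symbol matched exactly 1 of the 47643 genes in the deposited table, so all 10 of 10 were found.

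The tumors arose in LAP-tTA-tetO-MYC mice of the FVB/N strain. In this system the LAP promoter drives the tetracycline transactivator in hepatocytes, so that doxycycline holds the MYC transgene off and its withdrawal turns it on. All mice drank doxycycline at 100 mg/L until 4 weeks of age and then had MYC on for 8 weeks. The groups were 3 libraries from mice then given 50 mg/kg/day of GSK3326595 (which inhibits PRMT5, an enzyme that methylates arginines) over 2 weeks, and 3 libraries from mice given vehicle. The libraries held from 25814339 to 33621083 expected counts. The labels do not state how many mice or tumors each library stands for, so p-values describe only the spread between these libraries. GSK3326595 replicate 2 stood apart, at 103.1 on a leading principal component that held 38.1% of the variance, while the other libraries lay between -50.2 and 9.37.

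Values are CPM, read counts scaled to library size with TMM factors, unless another scale is named. In bulk tissue, fewer stellate cells and less RNA per stellate cell cannot be told apart. Several of these genes are also made by vascular smooth muscle cells and pericytes.

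The promoters of Acta2 and Reln are shown because these genes stand for different patterns across the libraries, the contractile one and the one with the widest range. The patterns were partly shared, with a Pearson's r of 0.55 between the log2 CPM of these genes over the 6 libraries. In vehicle replicate 2 they parted, with 19.2 CPM for Acta2 and 0.850 CPM for Reln. They are RefSeq promoters on GRCm38.p6, 250 bases before to 50 after the annotated start, 5′ to 3′ on the gene's strand. Promoters of 8 of the 10 genes were searched, and Pdgfrb and Tagln were not among them. Acta2 lies at chr19:34255324-34255623 (minus strand) and Reln at chr5:22344656-22344955 (minus strand). In Acta2 the capitals mark 2 elements of the CArG type, the binding motif of serum response factor, found when 1 letter of the A/T core was allowed to differ. In Reln they mark CACGTG, the E-box letters that MYC and related factors can bind.
Acta2: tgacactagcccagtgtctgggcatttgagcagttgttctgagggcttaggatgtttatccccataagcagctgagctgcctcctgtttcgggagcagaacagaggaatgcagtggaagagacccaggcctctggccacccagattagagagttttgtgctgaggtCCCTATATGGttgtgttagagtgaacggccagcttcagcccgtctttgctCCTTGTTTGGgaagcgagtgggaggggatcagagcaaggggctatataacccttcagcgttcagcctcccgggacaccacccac
Reln: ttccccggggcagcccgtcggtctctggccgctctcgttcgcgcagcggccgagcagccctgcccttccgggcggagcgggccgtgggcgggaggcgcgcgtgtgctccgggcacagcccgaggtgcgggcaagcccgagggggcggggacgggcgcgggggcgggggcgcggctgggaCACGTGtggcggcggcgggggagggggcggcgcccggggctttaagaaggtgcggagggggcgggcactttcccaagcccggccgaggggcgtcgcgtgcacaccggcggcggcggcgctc

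Both strands were searched. The strict CArG box, held by 1.63% of 32851 mouse promoters of this length, was in none of the 9 promoters annotated for these 8 genes, and the looser form, held by 9.98%, was chosen after that. Acta2 held it at -84 and -34 from the annotated start and Lrat at -223. The letters CACGTG were in 7.15% of all promoters and, among these genes, in that of Reln at -71. GGAATG, the core of the MCAT element of muscle promoters, was in 14.7% of all promoters and in those of Acta2 and Lrat. TATAAA was in 13.6% of all promoters and in none of these. These matches describe letters in the window only.

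No marker was called different between the groups. By edgeR, 0 of the 10 passed the adjusted threshold of 0.05, where 0% of 17012 genes tested did, and their adjusted p ranged upward from 0.548. At an unadjusted p under 0.05, 0 of 10 had higher values and 0 lower, against 5.45% (927) and 3.81% (648) of all genes. With no scaling beyond the library total those counts over all genes were 1142 and 430. DESeq2, which called 1.09% of genes higher and 0.588% lower, called 0 of 10. In none of the 10 did the GSK3326595 and vehicle libraries separate without overlap, against 6.72% of all genes higher and 7.66% lower. A comparison of 3 against 3 cannot give an exact two-sided permutation p below 0.1. The fitted log2 difference was above 0 in 8 of the 10, against 53.1% of all genes, and its median was 0.84, against 0.03 over all genes. The markers' median was 0.28, with 6 of 10 above 0, without GSK3326595 replicate 2. It was 0.50 without GSK3326595 replicate 1, 0.48 without vehicle replicate 1, 0.53 without vehicle replicate 2 and 1.23 without vehicle replicate 3.

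**Figure D1:**
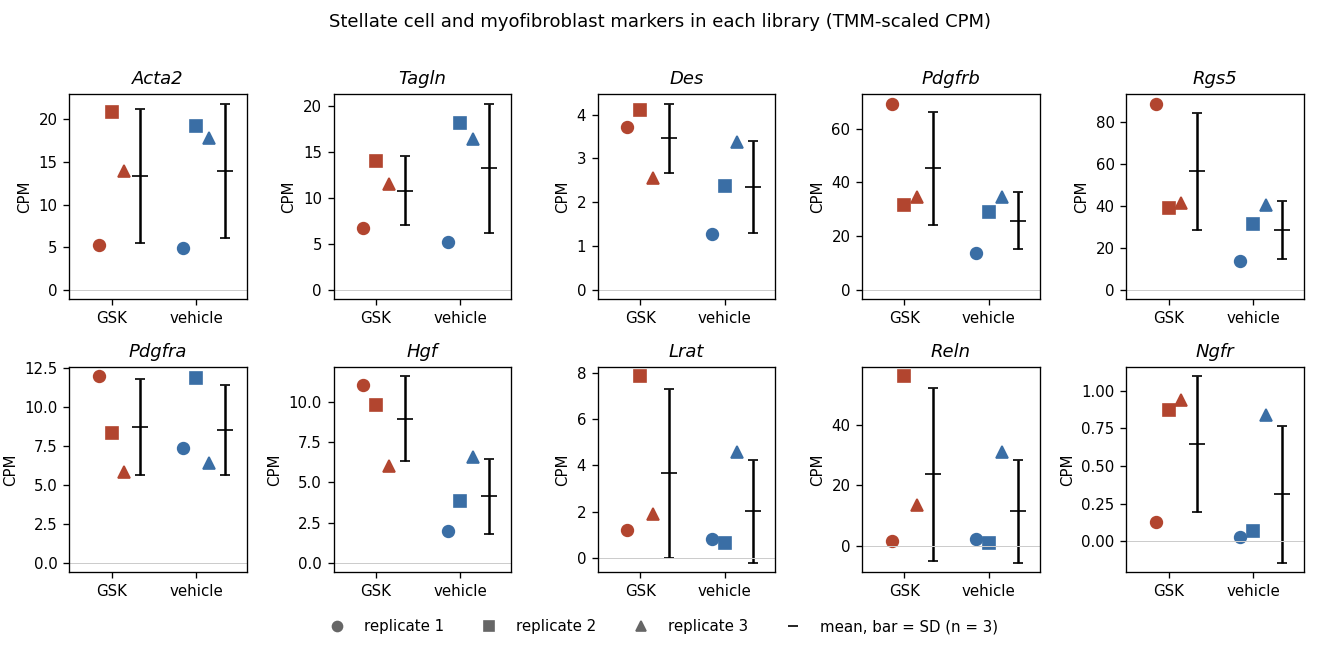
Each panel plots TMM-scaled CPM of 1 gene in the 3 GSK3326595 (GSK, left) and 3 vehicle libraries (right), with the mean and SD beside them. In all 10 panels the groups overlap; Reln, Lrat and Ngfr split into high and low libraries within both groups.

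Neither Acta2 nor Tagln stood higher in one group. Acta2 (ENSMUSG00000035783.8; mm10 chromosome 19, 34241090 to 34255590, minus strand) encodes smooth muscle actin, the standard marker of activated stellate cells. It had 5.25, 20.8 and 13.9 CPM in GSK3326595 replicates 1, 2 and 3, against 4.91, 19.2 and 17.8 CPM in vehicle replicates 1, 2 and 3. Replicate 1 was the low library in each group, and the groups overlapped almost entirely. The means were 13.3 ± 7.81 CPM in GSK3326595 and 13.96 ± 7.87 CPM in vehicle (SD, n = 3 each). The fitted log2 difference was -0.07 ± 0.64 (SE here and for every such difference; edgeR adjusted p = 0.988).

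Tagln (ENSMUSG00000032085.4; chromosome 9, 45929619 to 45936058, minus strand), which encodes the actin-binding protein transgelin, had the same low libraries. Its values were 6.70, 14.05 and 11.5 CPM in GSK3326595 and 5.19, 18.1 and 16.4 CPM in vehicle. The log2 difference was -0.30 ± 0.51 (edgeR adjusted p = 0.913). It ranged from -0.68 without vehicle replicate 1 to -0.01 without vehicle replicate 2. Tagln overlaps Pcsk7 on the opposite strand (16.4 to 29.3 CPM over the 6 libraries), and the sources used here do not state whether reads were counted by strand, so reads of the pair may be mixed. Pcsk7 had 20.4, 29.3 and 16.4 CPM in GSK3326595, against 23.8, 19.6 and 25.0 CPM in vehicle. Its part in the Tagln values was not tested.

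Des (ENSMUSG00000026208.9; chromosome 1, 75360329 to 75368579, plus strand), the intermediate filament protein desmin, is found in quiescent and activated rodent stellate cells and in muscle. It had 3.71, 4.09 and 2.56 CPM in GSK3326595, against 1.27, 2.38 and 3.37 CPM in vehicle. GSK3326595 replicates 1 and 2 lay above all vehicle libraries and replicate 3 below vehicle replicate 3, so the groups overlapped (log2 difference 0.56 ± 0.42, edgeR adjusted p = 0.725). Leaving out vehicle replicate 1 gave 0.26 for Des, and leaving out vehicle replicate 3 gave 0.95. Of 9 markers of skeletal and cardiac muscle, Myh2, Myh4 and Myh6 were at 0 in all libraries, and the summed level was 2.95 to 10.6 CPM in GSK3326595 and 1.02 to 3.55 CPM in vehicle.

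The PDGF receptors had different patterns across the libraries. Pdgfrb (ENSMUSG00000024620.11; chromosome 18, 61045150 to 61085061, plus strand), the receptor through which PDGF drives stellate cells and pericytes to proliferate, had 69.3, 31.6 and 34.6 CPM in GSK3326595, against 13.9, 29.0 and 34.4 CPM in vehicle. GSK3326595 replicate 1 was high and vehicle replicate 1 low, while the other 4 libraries lay within 29.0 to 34.6 CPM. The log2 difference was 0.81 ± 0.44 (edgeR adjusted p = 0.622). It was 0.36 without GSK3326595 replicate 1 and 0.51 without vehicle replicate 1.

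Rgs5 (ENSMUSG00000026678.10; chromosome 1, 169655501 to 169695813, plus strand), a regulator of G protein signalling that marks pericytes, followed Pdgfrb. It had 89.0, 39.3 and 41.3 CPM in GSK3326595, against 13.7, 31.5 and 40.7 CPM in vehicle. The same 2 libraries were the extremes, and the log2 difference was 0.98 ± 0.48 (edgeR adjusted p = 0.581), or 0.49 without GSK3326595 replicate 1 and 0.64 without vehicle replicate 1.

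Pdgfra (ENSMUSG00000029231.15; chromosome 5, 75152292 to 75198215, plus strand), the other PDGF receptor chain, found on stellate cells and portal fibroblasts, varied least of the 10. It had 11.96, 8.34 and 5.81 CPM in GSK3326595, against 7.39, 11.8 and 6.41 CPM in vehicle. Neither group stood higher (log2 difference 0.03 ± 0.37, edgeR adjusted p = 0.990), and the highest library held 2.06 times the lowest.

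Hgf (ENSMUSG00000028864.7; chromosome 5, 16553495 to 16620152, plus strand) encodes hepatocyte growth factor, which nonparenchymal cells secrete and hepatocytes receive through Met. It came nearest to a difference, with 11.02, 9.80 and 5.99 CPM in GSK3326595, against 1.98, 3.81 and 6.56 CPM in vehicle. GSK3326595 replicate 3 lay below vehicle replicate 3, which alone made the groups overlap. The means were 8.94 ± 2.63 CPM in GSK3326595 and 4.12 ± 2.31 CPM in vehicle (SD, n = 3 each). The fitted log2 difference was 1.12 ± 0.48 (edgeR unadjusted p = 0.0541, adjusted p = 0.548). With each library left out in turn the difference ranged from 0.78 to 1.66. Without vehicle replicate 3 it was 1.66 ± 0.46 (edgeR adjusted p = 0.386).

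Lrat, Reln and Ngfr split the libraries instead of the groups. Reln (ENSMUSG00000042453.14; chromosome 5, 21884454 to 22344702, minus strand), the secreted glycoprotein reelin, had 1.45, 55.9 and 13.3 CPM in GSK3326595, against 2.17, 0.850 and 31.0 CPM in vehicle. GSK3326595 replicates 2 and 3 and vehicle replicate 3 were high, and the other 3 libraries were low. The highest library held 65.7 times the lowest, while the group means of 23.6 ± 28.6 CPM in GSK3326595 and 11.3 ± 17.02 CPM in vehicle (SD, n = 3 each) differed by less than either SD (log2 difference 1.06 ± 1.55, edgeR adjusted p = 0.890).

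Lrat (ENSMUSG00000028003.6; chromosome 3, 82892579 to 82903973, minus strand), the enzyme that esterifies retinol for storage, had 1.19, 7.84 and 1.91 CPM in GSK3326595, against 0.797, 0.646 and 4.56 CPM in vehicle. The same 3 libraries were its highest (log2 difference 0.86 ± 0.99, edgeR adjusted p = 0.840). Ngfr (ENSMUSG00000000120.6; chromosome 11, 95568818 to 95587735, minus strand), the p75 neurotrophin receptor, had 0.129, 0.868 and 0.938 CPM in GSK3326595, against 0.0319, 0.0680 and 0.835 CPM in vehicle. It was again highest in those libraries, with 26 to 28 counts in each and 1 to 4 in each of the others, so its low values rest on few reads (log2 difference 1.01 ± 1.16, edgeR adjusted p = 0.840).

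Single libraries set the fitted differences of these genes. Without vehicle replicate 3 the log2 difference was 3.99 for Reln, 2.36 for Lrat and 3.64 for Ngfr. Without GSK3326595 replicate 2 it was -0.55 for Reln and -0.32 for Lrat. Without vehicle replicate 3, 5 of the 10 markers (Hgf, Ngfr, Reln, Lrat and Rgs5) had higher values at an unadjusted p under 0.05, against 6.10% of all genes in that fit, and 6 no longer overlapped between the groups, against 15.1%. None passed the adjusted threshold there, and the smallest adjusted p of any marker with any library left out was 0.367.

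**Figure D2:**
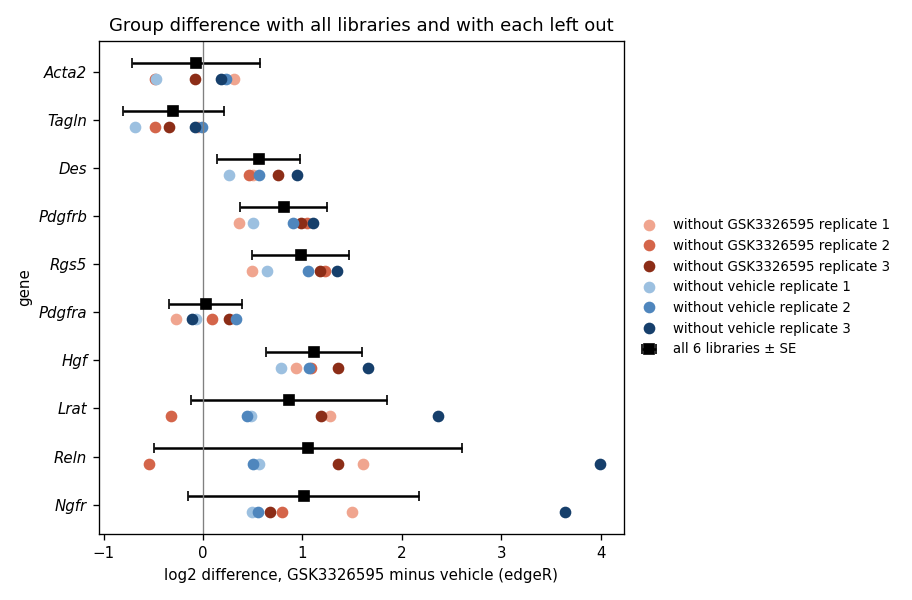
Fitted log2 difference, GSK3326595 minus vehicle, for each gene with all 6 libraries (squares, bars are SE) and with each library left out (circles). The circles of Acta2, Tagln and Pdgfra stay within -0.68 and 0.33, and those of Reln run from -0.55 to 3.99.

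Relative to each gene's own mean, 9 of the 10 markers are described by 3 patterns across the 6 libraries, drawn after their values were seen. Acta2 and Tagln were low in replicate 1 of both groups. Pdgfrb, Rgs5 and Hgf were highest in GSK3326595 replicate 1 and lowest in vehicle replicate 1. Des followed that pattern only in part, being lowest in vehicle replicate 1 but highest in GSK3326595 replicate 2. Acta2, Tagln and Ngfr were also lowest in vehicle replicate 1, so that trait alone does not tell the patterns apart. Lrat, Reln and Ngfr were high in GSK3326595 replicates 2 and 3 and vehicle replicate 3, apart from Lrat in GSK3326595 replicate 3, which lay at its mean. Pdgfra followed none of these: it was high in GSK3326595 replicate 1 and vehicle replicate 2 and low in replicate 3 of both groups. Vehicle replicate 1 held the lowest value of 7 of the 10 markers, against 14.4% of all genes tested, and GSK3326595 replicates 1 and 2 held the highest of 4 each, against 21.1% and 22.0%.

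**Figure D3:**
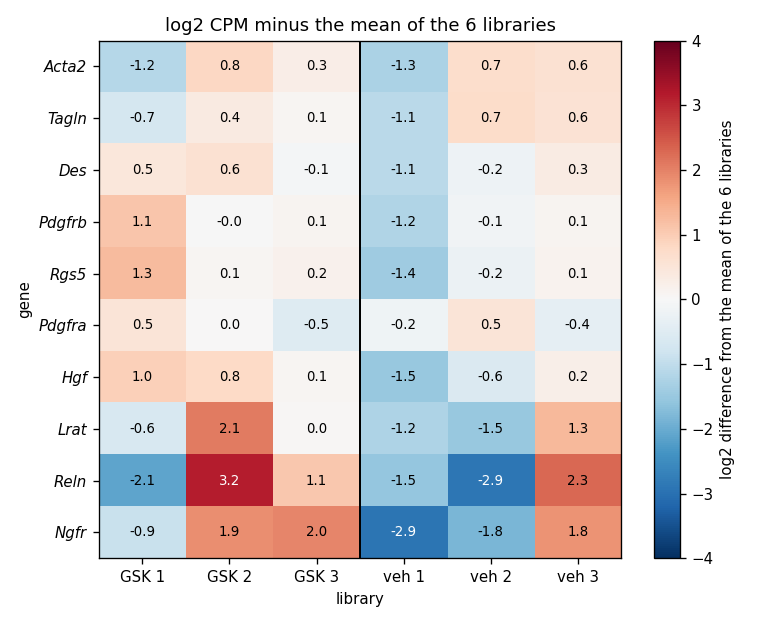
Log2 CPM of each gene minus its mean over the 6 libraries; columns are the 3 GSK3326595 libraries (GSK), then the 3 vehicle libraries (veh). Vehicle replicate 1 is below the mean in all 10 rows. Reln has the strongest colour above the mean, and Ngfr and Reln have the strongest below it.

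Ratios of CPM within a library showed how far pairs of markers kept step. The ratio of Rgs5 to Pdgfrb was 1.28, 1.25 and 1.19 in GSK3326595, against 0.991, 1.09 and 1.18 in vehicle, a 1.30-fold range, although Rgs5 itself ranged 6.48-fold. Acta2 over Tagln was 0.784, 1.48 and 1.21 in GSK3326595, against 0.945, 1.06 and 1.08 in vehicle. The genes that were high in the same 3 libraries kept step less closely: Reln over Lrat ranged 5.86-fold and Reln over Ngfr, which rests on few counts, 6.04-fold. Acta2 over Pdgfrb was 0.0758, 0.660 and 0.402 in GSK3326595 and 0.354, 0.663 and 0.516 in vehicle. GSK3326595 replicate 1 thus held the most Pdgfrb and Rgs5 and one of the lowest levels of Acta2. Reln over Pdgfrb ranged 84.6-fold, from 0.0209 in GSK3326595 replicate 1 to 1.77 in GSK3326595 replicate 2. The genes were paired for these ratios after their values were seen.

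**Figure D4:**
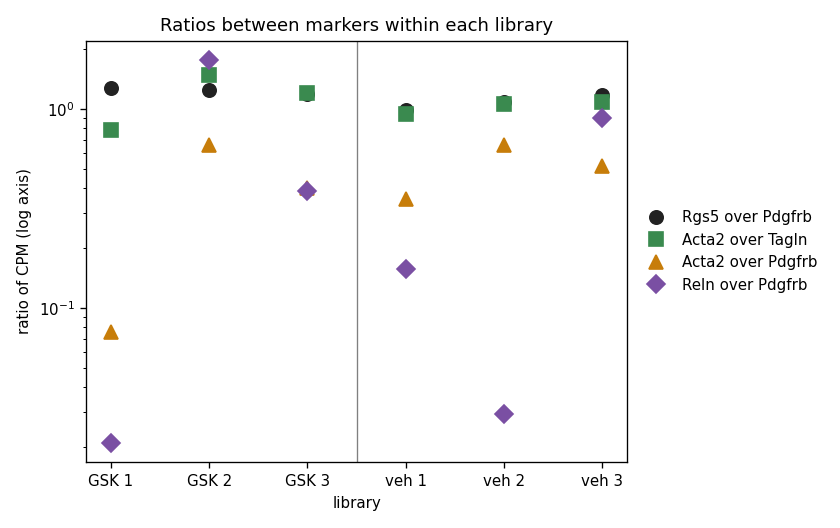
Ratio of CPM of 2 markers within each library (log axis). Rgs5 over Pdgfrb stays between 0.991 and 1.28, and Reln over Pdgfrb runs from 0.0209 to 1.77.

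Levels were compared between genes per length, as TPM (length-scaled counts) computed on the exon union of each gene. In GSK3326595 the order ran from Rgs5 (25.0 ± 12.3 TPM) through Pdgfrb (16.6 ± 7.65 TPM), Acta2 (12.1 ± 6.74 TPM) and Tagln (10.9 ± 3.61 TPM), all SD with n = 3. The other 6 lay well below these 4, with Hgf (2.48 ± 0.647 TPM), Reln (1.93 ± 2.27 TPM), Des (1.84 ± 0.326 TPM), Pdgfra (1.74 ± 0.587 TPM), Lrat (1.33 ± 1.27 TPM) and Ngfr (0.379 ± 0.269 TPM). In vehicle the same 4 led, from Tagln (12.3 ± 6.64 TPM), Acta2 (11.8 ± 6.76 TPM) and Rgs5 (11.8 ± 6.21 TPM) to Pdgfrb (8.77 ± 4.01 TPM), and the other 6 ran from Pdgfra at 1.55 ± 0.443 TPM to Ngfr at 0.178 ± 0.264 TPM (SD, n = 3 each). Apart from the step below the leading 4, neighbours in either order lay closer together than the larger SD of the pair.

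Other contractile genes and those of the serum response factor pathway were not called either. Of 15 tested, 8 had higher and 7 lower values in GSK3326595 (median log2 difference 0.04), and 0 passed at an adjusted or an unadjusted p under 0.05. Tpm2, a tropomyosin, had 2.35, 4.00 and 2.96 CPM in GSK3326595, against 4.46, 5.48 and 4.39 CPM in vehicle, and did not overlap (-0.62 ± 0.30, edgeR adjusted p = 0.571). Mrtfb, a coactivator of serum response factor, had 64.9 ± 8.51 CPM in GSK3326595 and 86.8 ± 12.9 CPM in vehicle (SD, n = 3 each, log2 difference -0.42 ± 0.19) and did not overlap either. Thus 2 of the 15 genes were lower without overlap and 0 higher, against 7.66% and 6.72% of all genes. Srf itself had 20.8 ± 2.38 CPM in GSK3326595 and 22.0 ± 1.05 CPM in vehicle, Mylk, the kinase of myosin light chain, a log2 difference of 0.62 ± 0.31, and Actn1, an actinin, of 0.61 ± 0.36.

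Among 7 other pericyte genes, 6 had higher values in GSK3326595 (median log2 difference 0.67), 1 of them at an unadjusted p under 0.05 and 0 adjusted. The shares over all genes were 5.45% higher at an unadjusted p under 0.05 and 6.72% higher without overlap. Mcam, an adhesion molecule, had 31.4, 16.3 and 19.7 CPM in GSK3326595, against 8.70, 14.7 and 13.5 CPM in vehicle, and did not overlap (0.87 ± 0.33, edgeR adjusted p = 0.524). Higd1b differed by 1.16 ± 0.58, the proteoglycan gene Cspg4 by 0.65 ± 0.35, and Abcc9, a subunit of potassium channels, by 0.67 ± 0.42. For 6 of these 7 genes GSK3326595 replicate 1 was the highest library, against 21.1% of all genes tested, as it was for Pdgfrb and Rgs5.

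Of 12 other genes listed for quiescent stellate cells and vitamin A handling, 6 passed the filter on low counts. The other 6, among them Gfap and Lhx2, stayed below it. Among the tested, 5 had higher values (median log2 difference 1.09), 2 at an unadjusted p under 0.05 and 0 adjusted. Of all genes, 5.45% were higher at an unadjusted p under 0.05 and 6.72% were higher without overlap. Nes, the filament protein nestin, had 28.7, 13.7 and 17.03 CPM in GSK3326595, against 2.39, 4.76 and 11.1 CPM in vehicle, without overlap (1.70 ± 0.59, edgeR adjusted p = 0.522). Nestin is not particular to the quiescent state. Pparg, a nuclear receptor associated with quiescence, had 15.9, 19.0 and 6.28 CPM in GSK3326595, against 5.13, 7.31 and 4.06 CPM in vehicle (1.32 ± 0.46, edgeR adjusted p = 0.522). Cygb, a globin of stellate cells, differed by 0.85 ± 0.42 and Vipr1 by 1.39 ± 0.74.

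The ligands and partners of the receptors were not called. All 4 PDGF ligand genes had higher values in GSK3326595, with 0 at an unadjusted p under 0.05: Pdgfa by 0.73 ± 0.42, Pdgfb by 0.44 ± 0.44, Pdgfc by 0.66 ± 0.58 and Pdgfd by 0.82 ± 0.54 on the log2 scale. Met, the receptor of hepatocyte growth factor, had 148, 132 and 122 CPM in GSK3326595, against 91.6, 93.4 and 129 CPM in vehicle (0.35 ± 0.20, edgeR adjusted p = 0.631). In the 7 other genes of the Hgf axis 4 had higher and 3 lower values, none at an unadjusted p under 0.05; Plau, a protease that can activate the ligand, differed by 0.97 ± 0.67, the activator Hgfac by -0.42 ± 0.54 and Gab1, an adaptor of Met, by -0.55 ± 0.49.

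Of the neurotrophin axis 5 of 9 other genes were tested, 4 with higher values and 0 at an unadjusted p under 0.05. Bdnf differed by 1.11 ± 0.76, the sorting receptor Sort1 by 0.43 ± 0.25 and Maged1 by 0.08 ± 0.27. Of the reelin receptors, Vldlr differed by 0.09 ± 0.66 and Lrp8 by -0.19 ± 0.42, and the adaptor Dab1 by 0.90 ± 0.57, none at an unadjusted p under 0.05.

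Among 9 tested genes of retinol handling other than Lrat, 5 had higher and 4 lower values (median log2 difference 0.06), 0 at an unadjusted p under 0.05. Aldh1a1, which oxidises retinal, had 6.74, 912 and 58.2 CPM in GSK3326595, against 22.0, 18.5 and 48.5 CPM in vehicle (3.46 ± 1.56, edgeR adjusted p = 0.555), so GSK3326595 replicate 2 set its mean. Of the hepatocyte carriers, Ttr differed by 0.71 ± 0.36 and Rbp4 by -0.88 ± 0.47, and Pnpla2, a lipase, by -0.71 ± 0.48.

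In the TGF beta axis, the main activating signal of stellate cells, 10 of 15 genes had higher and 5 lower values (median log2 difference 0.25), 2 and 1 of them at an unadjusted p under 0.05 and 0 adjusted. Of all genes, 53.1% had a log2 difference above 0. At an unadjusted p under 0.05, 5.45% of all genes were higher and 3.81% lower. The receptor gene Tgfbr1 had 110, 71.8 and 75.8 CPM in GSK3326595, against 48.2, 52.4 and 58.1 CPM in vehicle (0.70 ± 0.21, edgeR adjusted p = 0.499). Smad3, its signal transducer, had 57.4, 54.9 and 60.3 CPM in GSK3326595, against 42.0, 36.4 and 48.4 CPM in vehicle (0.44 ± 0.17, edgeR adjusted p = 0.522). Neither overlapped between the groups, nor did the ligand gene Tgfb1, with 16.2, 9.18 and 8.73 CPM in GSK3326595 and 4.36, 8.71 and 5.25 CPM in vehicle. Smad4, the partner of Smad3 in the nucleus, was without overlap in the other direction, with 57.7, 49.2 and 63.7 CPM in GSK3326595, against 70.1, 68.8 and 65.3 CPM in vehicle (-0.26 ± 0.16, edgeR adjusted p = 0.659). Thus 3 of the 15 genes were higher and 1 lower without overlap, against 6.72% and 7.66% of all genes. Smad4 and Tgfb1 were named after their values were seen. Ltbp1, which stores the ligand in the matrix, differed by 0.96 ± 0.40.

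**Figure D5:**
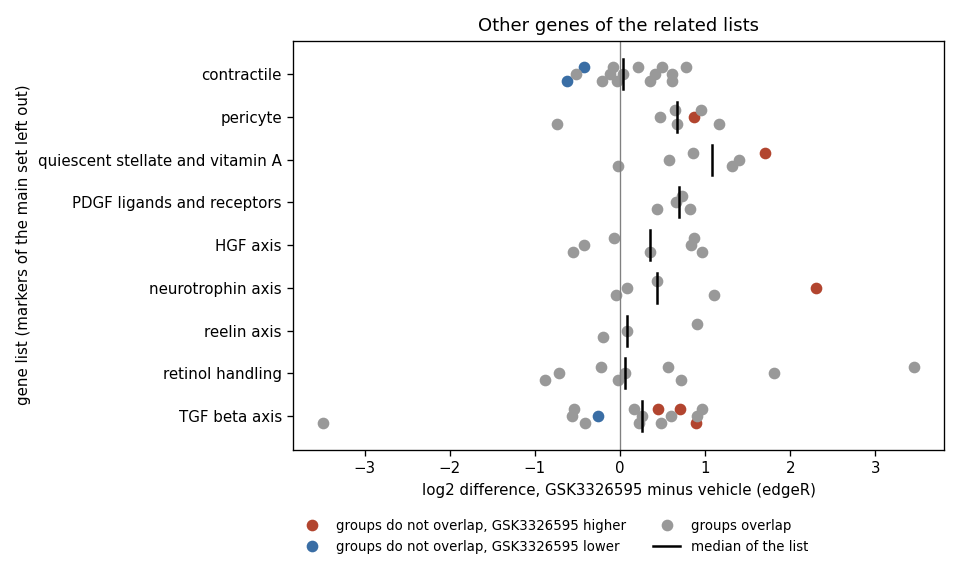
Fitted log2 difference, GSK3326595 minus vehicle, of the tested genes of each related list without the 10 markers; coloured points are genes whose groups do not overlap and lines are list medians. Most points are grey; coloured ones include Nes at 1.70 and Tgfbr1 at 0.70 on the right and Tpm2 at -0.62 on the left.

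Markers of other cells were measured beside these genes, and their part in the results was not tested. The summed level of the 10 stellate markers was 199.7, 192.6 and 132.0 CPM in GSK3326595, against 51.3, 117.4 and 162.0 CPM in vehicle. That of 8 endothelial markers was 196.6, 217.5 and 105.1 CPM in GSK3326595, against 88.7, 140.8 and 155.4 CPM in vehicle, so vehicle replicate 1 was lowest in both. The 8 T cell markers, of which 1 was above 1 CPM in all libraries and none at 0 in all, summed to 21.6, 28.7 and 13.2 CPM in GSK3326595, against 5.77, 6.87 and 4.09 CPM in vehicle. Their groups did not overlap. The 6 cholangiocyte markers summed to 22.2, 13.1 and 63.7 CPM in GSK3326595, against 11.2, 12.8 and 26.2 CPM in vehicle, and overlapped. The 6 markers of vascular smooth muscle summed to 15.4, 28.6 and 10.4 CPM in GSK3326595 and 6.60, 17.8 and 17.8 CPM in vehicle, and Myh11, smooth muscle myosin, had 6.83, 19.8 and 6.999 CPM in GSK3326595, against 3.98, 9.49 and 12.9 CPM in vehicle. The 8 portal fibroblast markers summed to 36.3 to 53.5 CPM in GSK3326595 and 23.6 to 37.3 CPM in vehicle, and the 6 mesothelial markers to at most 3.94 CPM in GSK3326595 and 4.46 CPM in vehicle. Of the 6 Schwann cell markers, which bear on Ngfr, 3 were under 1 CPM in all libraries.

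A pair of markers of mature liver cells, Cyp2e1 and Clec4f, had the same high and low libraries as Reln. Both were named after their values were seen, and both were among the genes most like Reln by Pearson's r (0.975 and 0.976). Cyp2e1, a pericentral hepatocyte enzyme, had 8.80, 1910 and 125 CPM in GSK3326595, against 5.96, 4.05 and 212 CPM in vehicle. Clec4f, a lectin of resident Kupffer cells, had 0.129, 23.5 and 5.38 CPM in GSK3326595, against 1.05, 0.170 and 24.3 CPM in vehicle. The whole lists did not follow this order. The 8 hepatocyte markers summed to 19945.5, 24446.8 and 6405.62 CPM in GSK3326595, against 22800.6, 27123.5 and 11288.7 CPM in vehicle. That sum was highest in vehicle replicate 2, the lowest library of Reln. The 8 macrophage markers summed to 1735.76, 541.526 and 702.977 CPM in GSK3326595, against 499.068, 793.79 and 632.585 CPM in vehicle. No marker of either list was at 0 in all libraries.

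The genes most like the markers as a whole were found by Pearson's r, over the 6 libraries, with the mean standardized log2 CPM of the 10, among 11042 genes averaging at least 5 CPM. They were Znfx1 (r = 0.985), Notch1 (0.976), Rapgef5 (0.971), Hmcn1 (0.969) and Svep1 (0.967), given as a description with no test; with 11042 genes and 6 libraries, high values of r are found for many profiles. Hmcn1, a large extracellular protein, had 6.99, 14.8 and 7.54 CPM in GSK3326595, against 3.09, 6.16 and 9.67 CPM in vehicle.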

How the data were processed

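Strand-preserving libraries were prepared from total tumor RNA, per the labels' protocols. Each value the authors deposited is an expected count of a gene, not scaled to library size (12.3% not whole, tolerance 0); cutadapt, STAR, Picard, RSEM and mm10 are named, per the submitters' processing notes. Their versions, the annotation release and the strand setting of the counting are not given in the sources. Expected counts were rounded; for 8 of the 10 markers (not Reln and Hgf) all 6 were whole as deposited. Acta2 has a close paralog, Actg2, that could share reads with it. Of the 47643 genes, 47224 matched GENCODE M21 by gene ID without its version, for coordinates and the exon-union lengths behind TPM computed here; Acta2 and Tagln carry another ID version there. Of 15 annotated genes overlapping the markers, 14 were under 1 CPM in all libraries.

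GSK3326595 was compared with vehicle (3 libraries each, grouped by the labels). Genes were kept by filterByExpr (minimum count 10), which left 17012 and all 10 markers, scaled by TMM and tested with edgeR 4.0.16 (quasi-likelihood, R 4.3.3), two-sided, Benjamini-Hochberg adjusted over all genes, threshold 0.05. The common biological coefficient of variation was 0.409. Each SE was taken from the F statistic, as the size of the log2 difference over its root; log2 CPM used a prior count of 2. Alternatives were DESeq2 1.42.0, limma-voom (limma 3.58.1), other scaling and filters, a replicate block and each library left out. Mrtfb was read under its older symbol Mkl2, by Ensembl ID. The fits were tested on simulated data. The members and lists were chosen with earlier results of these data known. Named were the markers, up to 4 genes of smallest p per list, Srf, Met and Vldlr, and the 5 genes most like the markers; others (Tgfb1, Smad4, Myh11, Cyp2e1, Clec4f, Pcsk7 and the genes at 0 or below the filter) were named after their values were seen. Some genes of the lists are counted but not reported by name here.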

Additional observations from a re-analysis of the deposited data

How the results depend on the processing

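The counts of 0 markers and 0 genes past edgeR's adjusted threshold stood under every scaling, filter, tool and left-out library tried, except that DESeq2 called 186 genes higher and 100 lower, with 0 markers among them; at an unadjusted p under 0.05 edgeR had 927 genes higher and 648 lower. The 0 markers higher at an unadjusted p under 0.05 became 2 with no filter on low counts (Hgf and Rgs5), and 1 (Hgf) with at least 1 CPM in 3 libraries, with DESeq2 and with limma-voom. Of all genes, 5.57%, 5.67%, 7.25% and 4.72% were higher at that p in those fits, in that order. Over the left-out libraries the count of markers higher at that p ranged from 0 to 5, against 1.97% to 9.25% of all genes. The count of markers not overlapping, an alternative added after seeing the data, ranged from 0 to 6. With a library left out, 7.64% to 16.5% of all genes were higher without overlap and 9.12% to 15.3% lower. The median log2 difference ranged from 0.28 to 1.23 there. Of 139 values of single markers under alternatives, 130 kept their direction and their side of the threshold and 9 turned direction. Acta2 turned to 0.0027 with no scaling beyond the library total, where the median of all genes was 0.12, and ranged from -0.49 to 0.32 over the left-out libraries, Pdgfra from -0.27 to 0.33, Lrat from -0.32 to 2.36 and Reln from -0.55 to 3.99. The cause was not tested. With the replicate number as a block the markers' median was 0.73 and 0 passed. Same-numbered libraries did not deviate together in every pair (correlations -0.07, 0.07 and 0.32), so the numbers were not taken to pair them. Ngfr, with 1 to 4 counts in 3 libraries, is limited by depth, and was left out by the filter of 1 CPM.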

Other observations

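The genes most like single markers were looked up after their values were seen, by Pearson's r of log2 CPM over the 6 libraries and with no test. For Rgs5 they were Dpysl3 (r = 0.983), Pkd1 (0.983), Frmd4a (0.973), Pxdn (0.970) and Wls (0.969). Pxdn, a peroxidase that crosslinks basement membrane collagen, had 40.5, 20.4 and 16.96 CPM in GSK3326595, against 6.15, 13.8 and 13.4 CPM in vehicle. For Reln they were Cyp2c54 (0.979), Thumpd2 (0.978), Clec4f (0.976), Mup20 (0.975) and Cyp2e1 (0.975). Mup20, a major urinary protein made by hepatocytes, had 1.06, 78.8 and 21.3 CPM in GSK3326595, against 0.382, 0.272 and 35.5 CPM in vehicle. With 11042 genes and 6 libraries, high values of r are found for many profiles.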
